A study of Caenorhabditis elegans with 2 samples.

Results

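The 372 autosomal peaks described here are binding regions of the tagged transcription factor ETS-4 in late embryos of Caenorhabditis elegans whose summit fell at the promoter of 1 protein-coding gene and of no other. They were taken from the authors' list of 1106 regions that passed a selection for reproducibility between replicates (irreproducible discovery rate, IDR), of which 930 lay on the 5 autosomes. A peak was kept when its summit, the position of highest enrichment, lay from 1000 bp upstream to 200 bp downstream of transcript starts of exactly 1 protein-coding gene in the Ensembl annotation of the WBcel235 genome, the assembly that browsers call ce11. The 372 peaks made up 40.0% of the autosomal IDR peaks (95% Wilson interval 36.9 to 43.2) and 33.6% of all IDR peaks. Of the other autosomal peaks, 301 had a summit in the windows of several genes, here called shared-promoter peaks, and 257 lay outside every window. A further 2869 autosomal regions of the pooled list met the same window rule but were not in the IDR list, and are called weaker one-gene regions.

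The chromatin came from whole hermaphrodite late embryos, harvested 5 h after the eggs had been synchronized by bleaching. The strain was OP509, of genotype unc-119(tm4063) III; wgIs509, in which wgIs509 is an integrated transgene that adds GFP and FLAG to the C-terminal end of ETS-4. Sonicated chromatin was precipitated with an antibody to GFP, so tagged protein is what was measured. The 2 samples were biological replicates of this 1 condition, and no other strain, stage or condition was compared. Because whole embryos were used, strong binding in few cells and weak binding in many cells cannot be told apart, and peak lists hold no expression values against which a cell type could be checked.

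ETS factors share a DNA-binding domain that contacts a GGAA or GGAT core, and the bases around the core differ between members of the family. In the worm, ETS-4 is known for its part in fat metabolism and lifespan and in the regrowth of cut axons, where it acts downstream of cAMP and protein kinase A. Many worm transcripts are trans-spliced, which removes the first part of the primary transcript, so an annotated start can lie downstream of the place where RNA polymerase II begins. A gene can also have several annotated starts, each with its own promoter region.

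Sequences of 101 bases centred on the summit are shown for 14 peaks, taken from the RefSeq copy of WBcel235 and written 5′ to 3′ on the strand of the gene. Capitals mark 6 words on either strand. These are the GAGA-type repeat GAGAGA, a second repeat with CG in it that reads GAGACG and its longer form of 9 letters, which reads GAGACGCAG. The others are the ETS word with an A core, CCGGAA, the word TGGCCTAG that ranked first in the search described further on, and the one that ranked second there, CTCTCGGA. Where marked words overlap, they run together as 1 stretch of capitals. The first 4 are the peaks of highest signal, shown because they head the list: K12H4.5 at III:8043911-8044011 (+ strand), M01F1.9 at III:3499989-3500089 (- strand), thoc-5 at III:5349406-5349506 (- strand) and mog-3 at III:5308382-5308482 (+ strand). The top peak held a GAGA-type repeat, the next CCGGAA, and the other two TGGCCTAG.
K12H4.5: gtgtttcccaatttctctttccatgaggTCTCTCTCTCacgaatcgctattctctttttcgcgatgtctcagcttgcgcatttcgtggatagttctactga
M01F1.9: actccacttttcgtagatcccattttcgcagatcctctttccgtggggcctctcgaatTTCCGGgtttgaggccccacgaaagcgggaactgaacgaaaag
thoc-5: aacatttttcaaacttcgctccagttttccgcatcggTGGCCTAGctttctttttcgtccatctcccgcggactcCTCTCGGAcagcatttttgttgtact
mog-3: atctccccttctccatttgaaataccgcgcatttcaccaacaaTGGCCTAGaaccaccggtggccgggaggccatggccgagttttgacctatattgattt

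The next 4 are the peaks of highest signal with GAGACGCAG within 50 bp of the summit on chromosomes II to V, shown because this word was more often present at one-gene peaks than in promoters at large: nurf-1 at II:14405338-14405438 (+ strand), drap-1 at V:9731154-9731254 (+ strand), F53C11.5 at V:13789581-13789681 (+ strand) and Y39B6A.43 at V:18967810-18967910 (- strand). In nurf-1 the word is part of a longer run that also holds GAGAGA. In F53C11.5 it stands on the opposite strand.
nurf-1: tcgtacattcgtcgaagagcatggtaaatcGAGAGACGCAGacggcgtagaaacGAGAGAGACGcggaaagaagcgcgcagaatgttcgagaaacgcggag
drap-1: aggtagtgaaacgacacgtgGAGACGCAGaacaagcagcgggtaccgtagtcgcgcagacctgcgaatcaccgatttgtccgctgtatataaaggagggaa
F53C11.5: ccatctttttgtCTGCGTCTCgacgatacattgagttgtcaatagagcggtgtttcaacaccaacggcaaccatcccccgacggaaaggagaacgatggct
Y39B6A.43: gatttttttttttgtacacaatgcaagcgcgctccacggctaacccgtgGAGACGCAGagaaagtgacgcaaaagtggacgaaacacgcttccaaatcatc

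The following 3 are the next peaks by signal on chromosomes II to V with the 6-letter ETS word CCGGAA within 50 bp of the summit: dhhc-4 at III:9868269-9868369 (- strand), lem-2 at II:14063235-14063335 (+ strand) and gly-9 at III:11286262-11286362 (- strand). In dhhc-4 and lem-2 the word stands on the strand opposite to the gene, and dhhc-4 also holds CTCTCGGA.
dhhc-4: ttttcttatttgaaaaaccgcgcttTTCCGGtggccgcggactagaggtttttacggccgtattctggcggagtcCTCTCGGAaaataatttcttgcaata
lem-2: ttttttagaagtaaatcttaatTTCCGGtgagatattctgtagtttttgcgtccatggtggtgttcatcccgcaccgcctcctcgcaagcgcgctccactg
gly-9: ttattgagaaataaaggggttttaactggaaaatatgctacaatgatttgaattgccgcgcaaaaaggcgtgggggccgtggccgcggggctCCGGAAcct

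The last 3 lay at a later start of a gene whose starts are at least 1000 bp apart, and show summits within gene bodies: Y65A5A.2 at IV:16415249-16415349 (+ strand), pptr-2 at V:11029465-11029565 (- strand) and zfp-1 at III:8802007-8802107 (+ strand). Y65A5A.2 held TGGCCTAG and CTCTCGGA, on opposite strands, while pptr-2 and zfp-1 held none of the 6 marked words in these 101 bases.
Y65A5A.2: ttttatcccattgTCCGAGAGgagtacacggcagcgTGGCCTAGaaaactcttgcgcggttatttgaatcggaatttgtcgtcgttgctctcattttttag
pptr-2: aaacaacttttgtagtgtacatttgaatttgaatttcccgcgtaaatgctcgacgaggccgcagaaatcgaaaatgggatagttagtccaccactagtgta
zfp-1: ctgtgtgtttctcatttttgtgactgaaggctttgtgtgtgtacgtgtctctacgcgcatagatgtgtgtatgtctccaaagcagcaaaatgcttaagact

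The signal is the value the peak caller gave each region, as the authors deposited it, and its scale is not given in the sources used here. Over the 372 one-gene promoter peaks the pooled signal had a median of 109.5, with quartiles of 82.6 and 157.1 and a range of 71.1 to 1137.1. The median was 119.1 at shared-promoter peaks and 96.5 at autosomal peaks outside the windows. The one-gene peaks thus lay between the other autosomal groups in signal, and the ranges of all 3 groups overlapped. The lowest value was fixed by the IDR list: the weakest member, at D2096.6, had 71.13, and the strongest region left out, at gtf-2E2, had 70.96.

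The peak of highest signal in this group stood 526 bp upstream of K12H4.5, a gene whose RefSeq product is uncharacterized, and had a pooled signal of 1137.1, with 593.9 in replicate 1 and 545.5 in replicate 2. Second was M01F1.9, which encodes a protein with an arrestin N-terminal domain, at 742.9 pooled, 411.5 in replicate 1 and 329.5 in replicate 2. Its summit lay 982 bp upstream of the start, inside an intron of the neighbouring gene M01F1.8. Both peaks led in each replicate, where the next highest values were 238.6 in replicate 1, at thoc-5, and 298.3 in replicate 2, at mog-3.

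The summit at thoc-5, a subunit of the THO complex that couples transcription to mRNA export, lay 55 bp upstream of the start with a pooled signal of 532.6, with 238.6 in replicate 1 and 295.6 in replicate 2. At mog-3, the homolog of the splicing factor CWC25, the summit lay 164 bp upstream with 501.0 pooled, 207.1 in replicate 1 and 298.3 in replicate 2. T07F10.3, an RNA-binding protein by its RRM domain, had 326.3 pooled, 135.4 in replicate 1 and 188.7 in replicate 2. All 3 were higher in replicate 2, whose values ran higher over the group as a whole. The ribosomal protein gene rpl-3 had 314.8 pooled, 163.2 in replicate 1 and 151.9 in replicate 2, at 269 bp upstream. The spliceosomal RNA helicase gene ddx-23 closed the list of the 25 highest with 233.8 pooled, 87.5 in replicate 1 and 143.7 in replicate 2.

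Of the 25 highest peaks, 4 stood at genes of the ubiquitin conjugation list. Among all 372 one-gene peaks 10 stood at genes of this list, which has 109 of the 17242 autosomal genes. The count of 4 is small and was not tested. The summit at eel-1, which encodes a HECT-type ubiquitin ligase, had a pooled signal of 365.0, with 210.5 in replicate 1 and 154.2 in replicate 2. The AAA ATPase gene cdc-48.1, whose product extracts ubiquitinated proteins, had 247.3 pooled, 127.8 in replicate 1 and 118.2 in replicate 2. Its partner ufd-3 had 235.1 pooled, 92.9 in replicate 1 and 143.4 in replicate 2. The F-box gene fbxl-2 had 249.3 pooled. Outside that list, bag-1, a regulator of the HSP70 chaperone, had 279.2. All 5 summits lay between 90 and 555 bp upstream of the start of their gene. The remaining genes of the 25 included pinn-1 (a prolyl isomerase), the checkpoint gene mrt-2, the beta-catenin gene wrm-1, the zinc transporter gene zipt-9, the inositol kinase gene ippk-1 and C34C12.9, whose product is uncharacterized, and their pooled signals ran from 237.8 to 301.6.

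**Figure D1:**
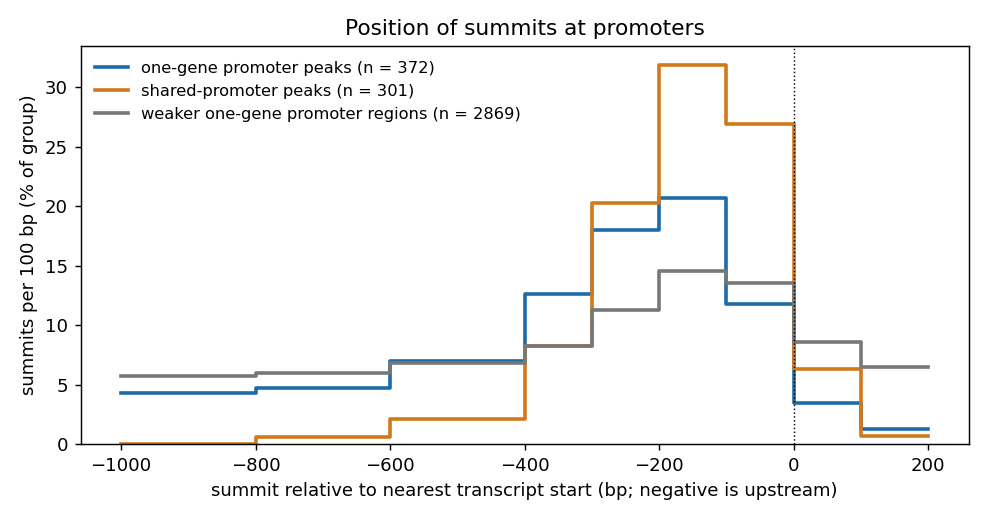
Position of the summit relative to the nearest transcript start (bp, negative is upstream) against the share of summits per 100 bp, for the 372 one-gene promoter peaks, the 301 shared-promoter peaks and the 2869 weaker one-gene regions. The one-gene peaks are highest 101 to 200 bp upstream, at 20.7% of the group, and spread further upstream than the shared-promoter peaks.

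Summits lay mostly upstream of the start. The window reaches further upstream than downstream, so an excess upstream is in part set by the rule. Of the 372 one-gene peaks, 354 (95.2%, Wilson interval 92.5 to 96.9) had the summit upstream of the nearest start and 18 had it at the start or downstream. Among shared-promoter peaks 280 of 301 (93.0%) were upstream, and among weaker one-gene regions 2435 of 2869 (84.9%). From summit to closest start, the median distance was 271.5 bp at one-gene peaks, with quartiles of 146.8 and 511.5 bp, against 151.0 bp at shared-promoter peaks and 255.0 bp at weaker one-gene regions. From each replicate's own top 1106 regions the median at one-gene regions was 268.0 bp in replicate 1 and 260.5 bp in replicate 2. These 2 values do not measure the spread of a difference between groups. The distance at a shared-promoter peak is the shortest over the starts of several genes, which tends to make it smaller. A summit far from 1 start also seldom lies within reach of a second gene's window. How much of the difference between one-gene and shared-promoter medians comes from the rule was not tested.

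Within the upstream window, 188 one-gene summits (50.5%) lay 1 to 300 bp from the start, and 97 (26.1%) lay 501 to 1000 bp away. Among shared-promoter summits these bands held 238 (79.1%) and 10 (3.3%). Among weaker one-gene regions they held 1132 (39.5%) and 828 (28.9%). Signal showed no trend with distance: its median was 114.0 in the nearer band and 107.2 in the farther one, and Spearman's rho between signal and distance over the 372 peaks was -0.03. The plot of summit positions shows the maximum 101 to 200 bp upstream, where 77 one-gene summits lay.

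By the gene models, 285 summits (76.6%) were intergenic, 60 (16.1%) lay in an intron, 19 in a 5′ UTR, 5 in a 3′ UTR and 3 in a coding exon. For shared-promoter peaks the intergenic count was 265 (88.0%) and the intron count 11 (3.7%), and for autosomal peaks outside the windows they were 137 (53.3%) and 112 (43.6%). Of the 87 summits within a gene, 65 lay only in the body of their own gene, and 22 lay within another protein-coding gene. Of the 65, 56 had an inner or last start as the nearest and 9 the first or only one. Examples within another gene are pinn-1, whose summit lay in an intron of sqv-2, and pbs-3, a proteasome subunit gene whose summit lay in the 3′ UTR of ulp-2. The closest start of another protein-coding gene was at a median of 2560 bp, and in 366 of 372 peaks the gene's own start was the nearest among protein-coding genes. The rule leaves out summits in the window of another protein-coding gene, so both values are in large part set by it. A gene of another biotype had a start within 250 bp of the summit and nearer than that of the protein-coding gene at 65 of the 372 peaks. A position does not show which gene is acted on.

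The window limits divided a few close cases. Just inside the upstream limit were ppm-2 at 999 bp with a pooled signal of 226.3 and let-92 at 997 bp with 75.2, and just outside were mrps-28 at 1006 bp with 197.9 and K11D2.4 at 1012 bp with 127.5. Just inside the downstream limit were cogc-3 at 177 bp with 71.7 and zip-11 at 170 bp with 86.5, and just outside were Y39A1C.1 at 250 bp with 228.4 and W05H12.1 at 268 bp with 122.0.

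Genes with several transcript starts were common among the one-gene peaks. The 372 peaks belonged to 363 genes, which is 2.11% of the 17242 autosomal protein-coding genes. Of these 363 genes, 185 (51.0%, Wilson interval 45.8 to 56.1) had more than 1 start, against 215 of 608 genes (35.4%) with a shared-promoter peak and 4551 of all 17242 genes (26.4%). Starts at least 1000 bp apart were annotated for 101 member genes (27.8%), against 73 shared-promoter genes (12%) and 1977 of all autosomal genes (11.5%). A gene with more starts has more sequence within its windows, so it can catch a summit more easily, and that part of the difference was not tested. When starts under 50 bp apart were counted as 1, the share of member genes with several starts was 43.0%.

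Of the 193 peaks at genes with several starts, 136 (70.5%) had the first start as the nearest, 27 an inner one and 30 the last. The summit stood before the first start in 132, between starts in 58 and after the last in 3. In the 105 peaks of genes whose starts were at least 1000 bp apart, the nearest start was the first in 59 (56.2%), an inner one in 24 (22.9%) and the last in 22 (21.0%), and 66 of the 105 summits lay in the window of 1 start alone. For those 66 the peak marks which of the gene's promoters it sits at. The pooled signal had a median of 113.8 at the 136 peaks nearest to a first start and of 104.3 at the 57 nearest to a later one.

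**Figure D2:**
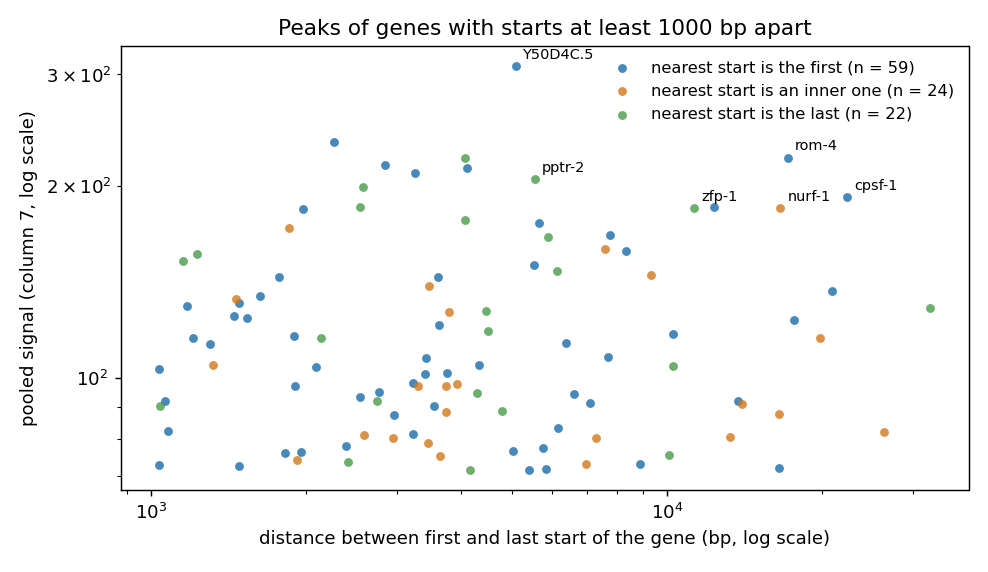
Pooled signal (log scale) of the 105 peaks whose gene has starts at least 1000 bp apart, against the distance between the gene's first and last start (bp, log scale), coloured by which start is nearest. The highest signal, 309.2 at Y50D4C.5, is at a first start, and the highest at a later start is 221.9 at Y65A5A.2.

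Some peaks stood at later starts. In nurf-1, which encodes the largest subunit of the NURF chromatin remodeller, the summit lay 44 bp upstream of the 15th of 16 starts, with a pooled signal of 185.1, 83.9 in replicate 1 and 102.9 in replicate 2. In zfp-1, the worm relative of the leukaemia gene AF10, it lay 762 bp upstream of the last of 9 starts, with 185.1 pooled, 77.7 in replicate 1 and 107.3 in replicate 2. The starts of nurf-1 span 16563 bp and those of zfp-1 11284 bp, so neither summit could be taken for one at the first promoter. In pptr-2, a regulatory subunit gene of protein phosphatase 2A, the summit lay 128 bp upstream of the last of 7 starts with 205.3 pooled, 78.0 in replicate 1 and 129.0 in replicate 2. The ubiquitin hydrolase gene duo-3 had its summit at the last of 3 starts with 199.4 pooled, 105.8 in replicate 1 and 92.7 in replicate 2.

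First starts carried the peak in other long genes. The histone methyltransferase gene set-2 had 214.0 pooled, 75.9 in replicate 1 and 133.9 in replicate 2, at 256 bp upstream of the first of 3 starts. The histone chaperone gene hira-1 had 216.1 pooled, at 735 bp upstream of the first of 2 starts. The rhomboid gene rom-4 had 222.0 and the cleavage factor gene cpsf-1 had 192.6, both at the first start of genes whose starts span 17153 and 22317 bp. Which annotated start was nearest to the summit therefore varied from gene to gene within this group.

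In all, 9 genes carried 2 one-gene peaks each. In miz-1 the peaks stood at separate starts, 778 bp upstream of the first start with 117.2 pooled and 805 bp upstream of the last with 104.3, and the replicates gave 59.1 and 60.0 at the one and 53.0 and 55.4 at the other. In din-1, a corepressor that binds the nuclear receptor DAF-12, 1 peak stood at the first of 6 starts with 72.2 pooled and the other at the fifth with 87.8. T02E1.2 likewise had 1 peak at each of its 2 starts, with 187.4 and 133.5 pooled. In Y65A5A.2 both summits lay upstream of the last start, at 786 and 275 bp, with 221.9 and 177.3 pooled. In the remaining 5, which are eel-1, rps-24, wrm-1, sor-1 and Y54G11A.2, both summits overlapped 1 broader region in each replicate's list, so these 10 peaks share their replicate values and are not independent. At rps-24, for example, the summits lay 567 and 365 bp upstream with 259.0 and 213.6 pooled, and both matched a region of 130.4 in replicate 1 and 132.6 in replicate 2.

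**Figure D3:**
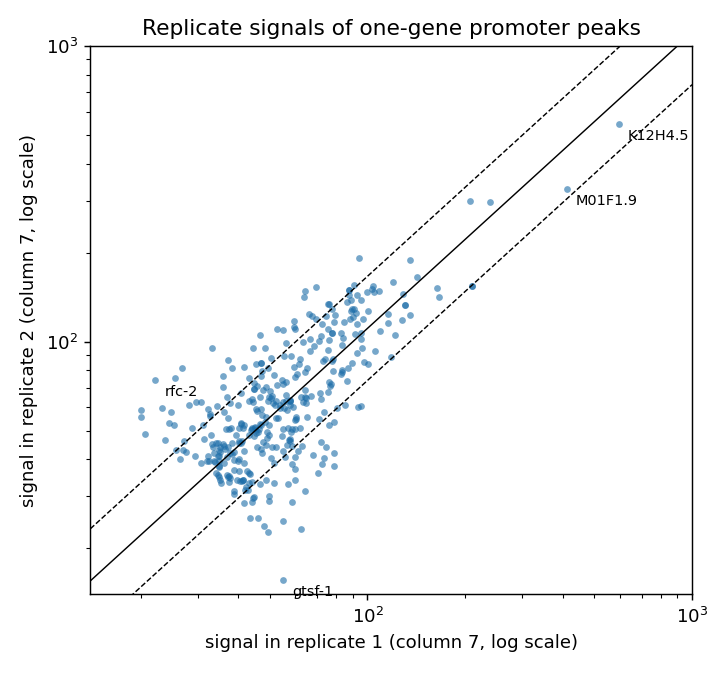
Signal of the 372 one-gene promoter peaks in replicate 1 and replicate 2 (both on log scales). The solid line is the median ratio and the dashed lines lie 1.5-fold to each side, between which 274 of the 372 peaks fall.

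Each of the 372 peaks overlapped a region in both replicate lists. The IDR step used those lists, so the overlap is set by the selection. The median signal was 51.7 in replicate 1 and 59.4 in replicate 2. After the ratio was centred on the median ratio of all autosomal IDR peaks, 274 peaks (73.7%, Wilson interval 69.0 to 77.9) agreed within 1.5-fold and 346 within 2-fold, with a median difference of 1.26-fold and a standard deviation of the log2 ratio of 0.54. The share within 1.5-fold was 76.0% for shared-promoter peaks (228 of 300) and 78.2% for autosomal peaks outside the windows (201 of 257). Both of these values lie close to that of the one-gene peaks. Spearman's rho between replicates was 0.64 over the 372 one-gene peaks, 0.74 at shared-promoter peaks and 0.53 outside the windows. These values describe points that share a pair of libraries and a lower limit on the pooled signal. Of the 372, 269 (72.3%) overlapped the top 1106 regions of both replicates and 7 overlapped those of neither. Over all autosomal IDR peaks, 674 of 930 (72.5%) overlapped both.

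Some members had a much higher signal in 1 replicate than in the other. The largest difference was at gtsf-1, a small-RNA pathway gene, with 55.0 in replicate 1 and 15.7 in replicate 2, a 3.89-fold difference after centring. C46F11.4, an RNA helicase gene, had 62.4 in replicate 1 and 23.3 in replicate 2, and ceh-22, a homeobox gene of the pharynx, had 55.0 and 24.7. In the other direction, rfc-2, a clamp-loader subunit gene, had 22.2 in replicate 1 and 74.1 in replicate 2, a 3.02-fold difference. The dynactin gene dnc-4 had 25.6 and 75.5, and nfi-1, a nuclear factor I gene, had 26.9 and 81.5. The pooled signals of these 6 peaks ran from 73.9 to 117.1, while the median of the group was 109.5. At M01F1.9 and K12H4.5, the strongest members, the centred difference was 1.38-fold and 1.21-fold.

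Sequence words were counted on both strands within 100 bp of each summit. The 4-letter core GGAA is so short that 87.2% of 17242 autosomal promoters held it in a window of the same length, centred 100 bp upstream of the first start of each gene. At one-gene peaks the share was 80.4%, and in weaker one-gene regions 86.1%. The longer ETS words differed from all promoters by a few percentage points at most. CCGGAA, which contains GGAA, was in 5.91% of one-gene windows, 6.31% of shared-promoter windows, 7.53% of weaker one-gene windows and 5.62% of all promoters. CGGAT, the alternative core with T, was in 15.3%, 12.6%, 16.9% and 13.1% of these groups in the same order. CCGGAAGT was in 0 of 372 one-gene windows, which allows a share of up to 1.0% by the Wilson interval, against 0.33% of all promoters. What the absence of these letters from a window means for binding of ETS-4 there was not tested.

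GAGA-type repeats were more frequent. GAGAGA was in 134 of 372 one-gene windows (36.0%, Wilson interval 31.3 to 41.0), 24.3% of shared-promoter windows, 59.1% of windows at autosomal peaks outside promoters, 24.1% of weaker one-gene windows and 16.2% of all promoters. When each replicate was taken by itself, the share at one-gene regions was 36.4% in replicate 1 and 38.4% in replicate 2. GAGACG, which can overlap GAGAGA by several letters, was in 28.0% of one-gene windows, 15.6% of shared-promoter windows and 7.50% of all promoters. The 9-letter GAGACGCAG, which contains GAGACG, was in 12.6% of one-gene windows, 4.98% of shared-promoter windows, 19.8% outside promoters and 2.51% of all promoters. The nearest copy lay at a median of 45.0 bp from the summit among the 57 one-gene peaks that had it within 250 bp. For every one of these 3 words the one-gene peaks lay between the shared-promoter peaks and the peaks outside promoters. GC content had the same order, at 44.3%, 40.9% and 48.2%, with 33.3% in all promoters, and its part in the word counts was not tested.

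**Figure D4:**
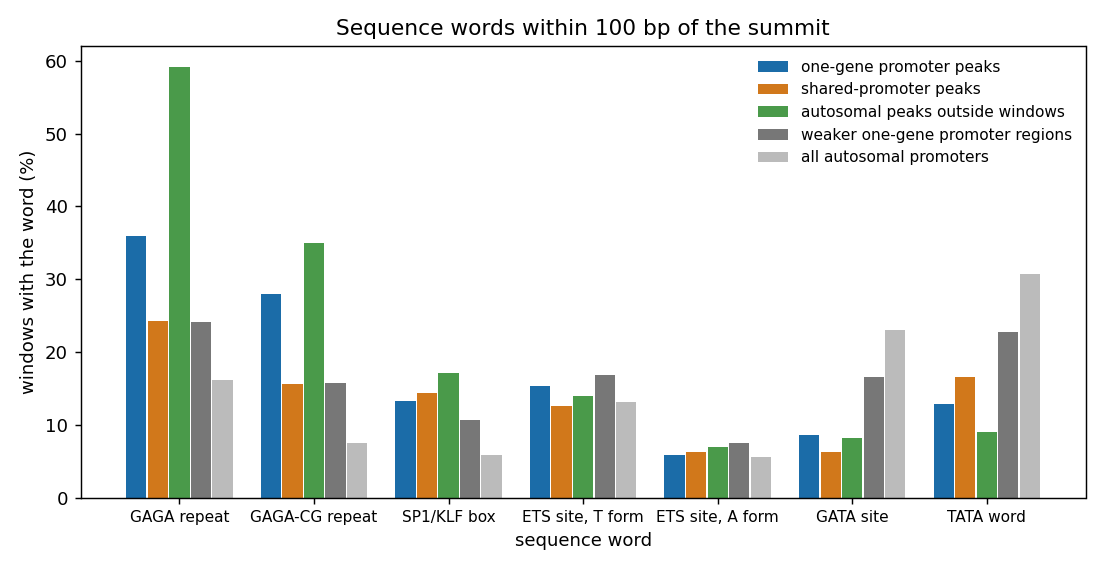
Share of 201 bp windows (%) that hold each of 7 sequence words on either strand, for the one-gene promoter peaks, shared-promoter peaks, autosomal peaks outside windows, weaker one-gene regions and all autosomal promoters. The ETS, GAGA, GATA and TATA labels stand for the words named in the text, and the SP1/KLF box is CCGCCC. Both repeats of the GAGA type stand highest outside promoters, and the GATA and TATA words in all promoters.

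Within the one-gene peaks, the share with GAGAGA was higher at lower signal, and did not follow distance in 1 direction. The pooled signal had a median of 95.0 at the 134 peaks with GAGAGA and 117.4 at the 238 without it. The word was in 26 of the 124 peaks of highest signal (21.0%), 51 of the middle 124 (41.1%) and 57 of the 124 of lowest signal (46.0%). It was in 44.6% of the 166 windows 301 to 1000 bp upstream, 27.8% of the 144 windows at 101 to 300 bp, 27.3% of the 44 at 1 to 100 bp and 44.4% of the 18 at or downstream of the start. The GC content of these bands was 46.1%, 42.4%, 42.8% and 47.3%. In the 124 peaks of highest, middle and lowest signal the GC content was 42.1%, 45.0% and 45.8%, and its part in the trend of GAGAGA with signal was not tested. TATAAA ran the other way along signal, with 17.7% of the 124 highest and 9.7% of the 124 lowest. It was in 12.9% of one-gene windows and 30.7% of all promoters, and the GATA-factor word TGATAA was in 8.60% and 23.0%. Both are AT-rich words, and both were less frequent at one-gene peaks than in promoters as a whole, which have the lower GC content. The promoter windows also differ in position, being centred 100 bp upstream of the first start. TATAAA was in 11 of 44 one-gene windows at 1 to 100 bp upstream and 17 of 144 at 101 to 300 bp. It was in 18 of 166 at 301 to 1000 bp and 2 of 18 at or downstream of the start. For TGATAA these counts were 4, 12, 13 and 3. The parts of position and GC content in these differences were not tested.

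All 23460 words of 8 letters that occur in the one-gene windows were also ranked by how far their share there exceeded that in weaker one-gene regions. The ranking used these same windows, so the first words are a description of them and were not tested. First was TGGCCTAG, in 38 of 372 one-gene windows (10.2%), 15.6% of shared-promoter windows, 1.56% of windows outside promoters, 1.57% of weaker one-gene windows and 0.85% of all promoters. Second was CTCTCGGA, in 35 one-gene windows (9.41%), 4.98% of shared-promoter windows, 0.94% of weaker one-gene windows and 0.64% of all promoters. Of the next 8 words, those at ranks 3, 6 and 8 overlap GAGACGCAG, that at rank 10 overlaps TGGCCTAG, and those at ranks 4 and 5 overlap CTCTCGGA. Unlike the GAGA-type repeats, TGGCCTAG and CTCTCGGA were rare at the peaks outside promoters. TGGCCTAG was in 27 of the 124 one-gene peaks of highest signal (21.8%). It was in 7 of the middle 124 and 4 of the 124 of lowest signal. For CTCTCGGA these counts were 19, 13 and 3. The ranking was made against regions of lower signal, so it favours words of strong peaks, and this trend with signal is no separate result. Peaks with TGGCCTAG had a median pooled signal of 163.5, and its nearest copy lay at a median of 12.5 bp from the summit. Both words were present together in 9 windows, among them thoc-5 and Y65A5A.2, as the capitals in their sequences show. Of the 38 windows with TGGCCTAG, 5 also held GAGAGA.

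The genes of the one-gene peaks were set against 34 lists of gene families and tissue markers. Of the 363 genes, 80 (22.0%) were in at least 1 list and 283 in none, and 99 have only a sequence name. The lists match gene symbols, so they miss genes known by a sequence name or under another symbol, and their counts are not complete for a function. Against the 2.11% of all autosomal genes, the share was above 7% in genes linked to ETS-4 (1 of 9), chromatin enzymes (8 of 74), the V-ATPase (2 of 19), nuclear pore and transport genes (4 of 40), aminoacyl-tRNA synthetases (3 of 31), autophagy genes (3 of 36), ubiquitin conjugation (9 of 109), translation factors (3 of 39) and the respiratory chain (4 of 53). These are small counts in lists written with earlier results of these data known, and no test is given on them. In chemoreceptor genes 2 of 1253 carried a peak (0.16%), in F-box genes of the fbxa, fbxb and fbxc series 0 of 305, in nuclear hormone receptor genes 2 of 247 and in cuticle collagen genes 0 of 145. Member genes with F-box products outside those series are fbxl-2, lin-23 and Y32B12B.2. The members F48A11.4 and F53A2.9, which have only a sequence name, have a product with an F-box associated domain.

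**Figure D5:**
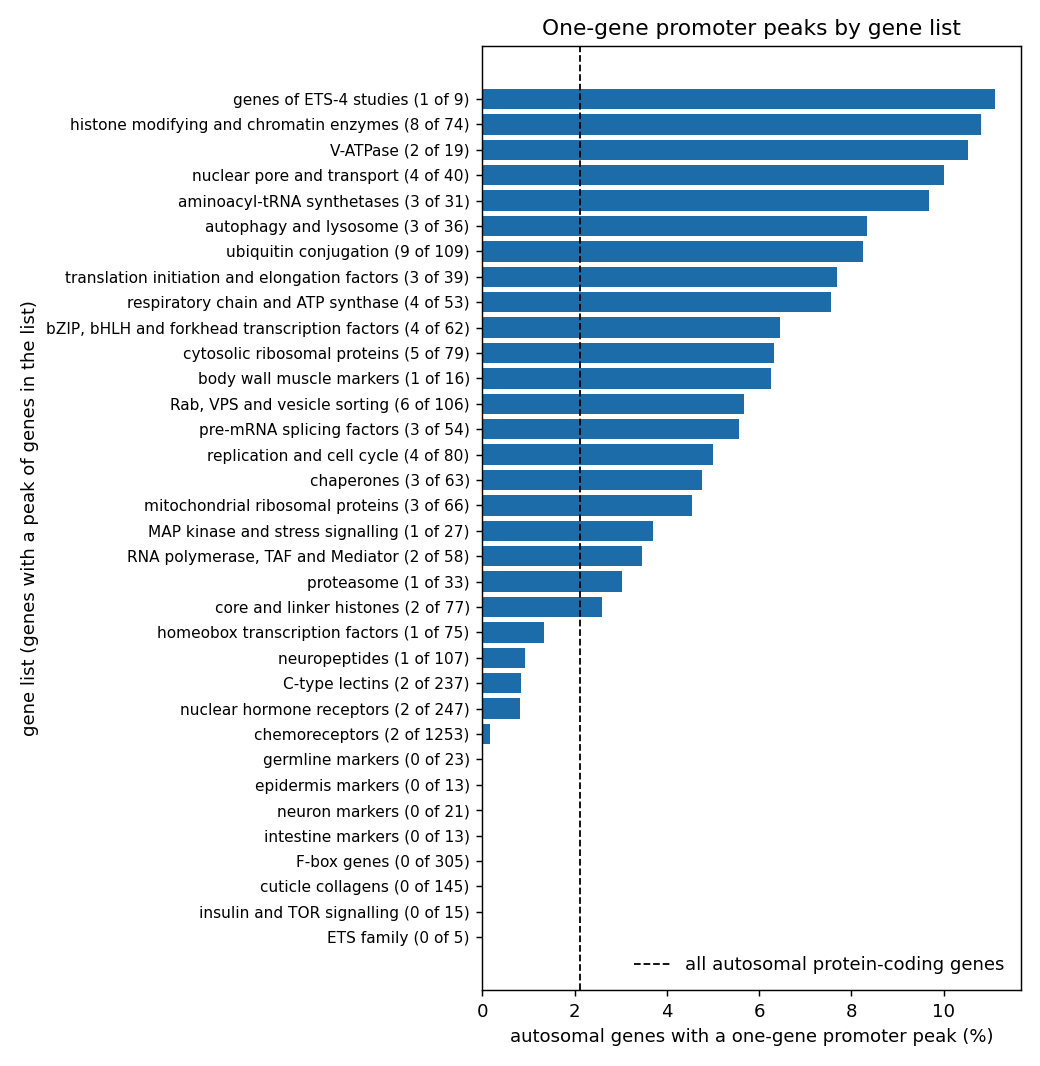
Share of the autosomal genes of each of 34 lists that carry a one-gene promoter peak (%), with the count in brackets; the dashed line is the 2.11% of all autosomal protein-coding genes. The chemoreceptor, C-type lectin, nuclear hormone receptor, neuropeptide and homeobox lists stand between 0 and the line, and 8 lists have no gene with a peak.

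The genes of the chromatin enzyme list with a peak were the methyltransferase genes set-2, lin-59 and set-4, the acetyltransferase genes mys-1 and cbp-1, and swsn-1, swsn-3 and swsn-7 of the SWI/SNF remodelling complex. Their pooled signals had a median of 118.6. The highest after set-2 was mys-1, the Tip60 homolog, with 205.5 pooled, 95.3 in replicate 1 and 106.7 in replicate 2. At cbp-1, the homolog of CBP and p300, the signal was 119.0 pooled, 49.8 in replicate 1 and 64.9 in replicate 2. By their RefSeq products, F39G3.3, a histone H3 methyltransferase gene with 125.1 pooled, and jhdm-1, a histone demethylase gene with 87.4, are members outside the list. The ubiquitin list added ubc-3, otub-1, otub-2, usp-4 and ufd-2 to the 4 genes named above, with pooled signals of 101.4 to 131.1.

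Over all autosomal genes, 363 had a one-gene peak and 608 a shared-promoter peak, so a larger shared-promoter count is usual. Of 79 cytosolic ribosomal protein genes, 5 had a one-gene peak and 26 a shared-promoter peak, and with the window of 500 bp upstream and 100 bp downstream the one-gene count was 9. The 5 were rpl-3, rps-24, rpl-35 with 175.0 pooled, ubl-1 with 80.0 and rpl-24.2 with 105.8, of which the last is by its RefSeq product a ribosome biogenesis factor. Of 63 chaperone genes, 3 had one-gene and 19 shared-promoter peaks, and the one-gene count was 6 in that narrower window. Of 80 replication and cell cycle genes, 4 had one-gene and 14 shared-promoter peaks. Of 109 ubiquitin conjugation genes, 9 had one-gene and 4 shared-promoter peaks. Of the translation factors, 3 subunits of eIF3 had one-gene peaks: eif-3.B with 215.1, eif-3.I with 185.8 and eif-3.C with 104.5 pooled. The lysyl-tRNA synthetase gene kars-1 had 176.2, and the cytochrome oxidase gene cox-6A had 166.5. The ATP synthase gene F58F12.1, with 166.8, and the cytochrome oxidase gene F36A2.7, with 77.1, are not on the respiratory chain list, which matches symbols.

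On the lists of transcription factor genes, those with a one-gene peak were jun-1, zip-2, zip-11 and hlh-11 of 62 bZIP, bHLH and forkhead genes, ceh-22 of 75 homeobox genes, and nhr-66 and nhr-256. The highest of these 7 listed genes was jun-1, the worm homolog of the AP-1 subunit, with 123.5 pooled, 57.6 in replicate 1 and 63.0 in replicate 2 at the first of its 9 starts. Other members are transcription factor genes by product but not on these lists, among them nfi-1, daf-19, tbx-2 and xbp-1, and the bZIP gene F13A7.14 was higher than jun-1, with 218.9 pooled, 89.7 in replicate 1 and 129.0 in replicate 2. Of 9 autosomal genes linked to ETS-4 in the literature, 1 carried a one-gene peak: kin-1, the catalytic subunit of protein kinase A. Its summit lay 254 bp upstream of the last of 12 starts, which span 32315 bp, with 128.9 pooled, 64.8 in replicate 1 and 62.0 in replicate 2. None of the 5 autosomal ETS family genes on the list had one. Of the lists of tissue markers, the intestine (13), neuron (21), epidermis (13) and germline (23) lists had 0, and the muscle list had unc-112, a kindlin of muscle attachments, with 106.9 pooled.

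Noncoding genes were not part of the rule, and some one-gene peaks stood near one. Within 250 bp of the summit, a tRNA gene started at 7 one-gene peaks (1.88%), 2 shared-promoter peaks and 21 peaks outside the windows (8.17%). A snoRNA gene started at 13 (3.49%), 5 and 27 (10.51%). In weaker one-gene regions the share was 1.15% for tRNA genes and 0.59% for snoRNA genes. Most frequent were genes that the annotation labels only as ncRNA. One of them started at 57 one-gene peaks (15.32%), 35 shared-promoter peaks (11.63%), 67 peaks outside the windows (26.07%) and 7.67% of weaker one-gene regions. A snRNA gene started at 4 one-gene peaks, among them the spliced leader genes sls-2.1, near H41C03.3 with 184.2 pooled, and sls-2.4, near egg-5 with 168.6 pooled. The snoRNA gene T02E1.9 lay near the stronger peak of T02E1.2, and Y17G7B.25 near the peak of ippk-1. When the windows of genes of every biotype were counted, 281 of the 372 peaks were still at 1 gene only and 91 were shared with a gene that does not code for protein. For those 91, the protein-coding gene and the noncoding gene cannot be told apart by position.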

How the data were processed

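ChIP-seq peak lists of 2 biological replicates of 1 group were analysed. According to the readme texts that the authors deposited, they called regions in each replicate and in the pooled alignments against a control, and made the IDR list from these. For the aligner, peak caller and IDR threshold, neither names nor versions were found in the labels or readme texts. The deposited signal (column 7) has no stated scale, and the deposited −log10 q (column 9) stood at its highest value in 327 of 372 members, so signal alone was used. Read counts were not analysed here, so library depth is unknown.

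Summits were assigned to starts of protein-coding transcripts (Ensembl release 115, WBcel235) with Python 3.11.15. Sequence was read from the RefSeq genome of the same build. A member's replicate value is that of the overlapping region of highest signal. Wilson intervals cover counting error only. With 1 group no test over samples was made. RefSeq products gave gene roles, for 363 of 363 genes. The steps were tested on simulated summits and planted words. The members and lists were chosen with earlier results of these data known, and errors in matching list names to genes were corrected after member genes were seen. The genes named are the 25 peaks of highest signal, genes with 2 peaks, the 10 highest with starts at least 1000 bp apart, up to 4 per list, those next to each limit and the 5 largest replicate differences each way, of which some are given by range, together with the later-start, noncoding and off-list examples, which were chosen after their values were seen.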

Additional observations from a re-analysis of the deposited data

How the results depend on the processing

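The number of one-gene promoter peaks was 361 with a window of 500 bp upstream and 100 bp downstream, 354 with 2000 and 200 bp, and 281 when genes of every biotype were counted. Of the 372 peaks, 271 and 288 were still one-gene peaks in the narrower and the wider window. Of the 363 genes, 259 also had a one-gene region in the top 1106 regions of each replicate. The number of one-gene peaks was 193 in the upper 50% of autosomal peaks by signal, which has fewer peaks by construction. From each replicate's own top 1106 regions it was 376 in replicate 1 and 378 in replicate 2. The median distance followed the window, at 203.0 bp in the narrower and 365.0 bp in the wider one. It was 259.0 bp with every biotype, and 260.5 to 268.0 bp with 1 replicate left out. The share of genes with several starts was 43.0% when starts under 50 bp apart were merged. The share with GAGAGA was 30.5% in the narrower window, 42.1% in the wider one, 26.4% in the upper 50%, 20.2% within 50 bp and 50% within 250 bp of the summit, and 36.4% to 38.4% with 1 replicate left out. The share of genes on at least 1 list ran from 19.4% to 23.3%. The agreement of replicates within 1.5-fold ran from 72.6% to 75.1% over 6 alternatives, and cannot be given with 1 replicate left out. The 72.6% is from a required overlap of 50% of both regions, which only 314 of the 372 peaks met in both replicates. With summits within 100 bp, 361 had a match in both. Peaks without a match are not in these shares. Of the 39 values of the main results under alternatives, 28 stayed within their limits and 11 moved. The limits were the Wilson interval of the main value for shares, a 1.5-fold range for counts and 5.3 bp for the median distance. By the last, the 260.5 bp of replicate 2 alone moved and the 268.0 bp of replicate 1 alone did not. Most alternatives use overlapping sets of the same peaks, so these limits are no test. Of 317 others, 79 moved, among them the V-ATPase list, with 2 genes, and the homeobox list, with 1, which fell to 0 in the upper 50%.

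No paired analysis was possible because the 2 samples are replicates of 1 group. The unknown scale of the signal and the missing control library limit all levels, and 2 replicates give no estimate of the spread beyond their own difference. The word ranking over all 8-letter words was added after the data were seen.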
